A study of Ceratopteris richardii with 9 samples.

Results

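Among the 28952 transcripts of the young Ceratopteris sporophyte, 53 were high in both the root tip and the shoot and low in the root between them. They were chosen from their own values. A transcript was kept when its mean was at least 5 CPM in the root tip and at least 5 CPM in the shoot, and when the lowest of those 6 libraries, plus 0.5, was at least 4 times the highest of the 3 differentiated root libraries, plus 0.5. This ratio is called the score here. CPM, the usual read-depth unit, are a transcript's estimated counts as a share of the library's total and are not divided by transcript length, so levels are compared between libraries for 1 transcript and not between transcripts. Of the 14217 transcripts that reached 5 CPM in both segments, 2164 (15.2%) had all 6 root tip and shoot libraries above all 3 differentiated root libraries, and 53 had a score of at least 4, so the upper limit of 200 members was not reached.

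RNA was sequenced from 3 segments of Ceratopteris richardii, genotype Hn-n, at 45 days after fertilization, with 3 libraries each and 9 in all. The root tip (RT) was cut below the visible vascular strands, the differentiated root (DR) was the root left after removal of the tip, and the shoot (SH) comprised young leaves with the stem and no root tissue. No segment received a treatment, and all plants grew upright on C-Fern medium with 2% sucrose at 25 °C under 16 h of light and 8 h of darkness. Each library pooled organs of several plants, and the tissue layers within a segment were not separated.

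In ferns such as Ceratopteris, both shoot and root grow from a meristem headed by a single large apical cell. In the root that cell also cuts off the initials of the root cap, and behind the tip the cells stop dividing, elongate and mature. Dividing cells of a shoot lie mainly at its apex and in its young leaves. The table carries no gene names, and 0 of the transcript numbers were found in the RefSeq gene table. None of the members is among the 3 WOX transcripts described below, the only ones that a source used here ties to a gene. The members are therefore described by number, with no function assigned, and whether they mark dividing cells was not tested.

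Library totals ranged from 20065804 to 27376687 counts. In the DR libraries 3 counts corresponded to 0.121 to 0.132 CPM, and 3 members lay below that floor in DR replicate 3, transcript107947 and transcript42454 at 0.0439 CPM (1 count each) and transcript70969 at 0.0878 CPM (2 counts). None did in the other DR libraries.

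The 53 transcripts together took 0.205% ± 0.00645 (SD, n = 3) of the counts in RT and 0.243% ± 0.00845 (SD, n = 3) in SH. In DR they took 0.0175% ± 0.00352 (SD, n = 3). The contrast with DR follows from the rule and is given as a description. The mean level of a member ranged from 5.02 to 177 CPM in RT with a median of 26.99, from 6.66 to 295 CPM in SH with a median of 23.2, and from 0.204 to 33.6 CPM in DR with a median of 1.85. The mean in RT was 5.27 to 83.1 times the mean in DR, with a median of 12.2. The mean in SH was 5.40 to 410.2 times that in DR, with a median of 11.1. No member was without counts in all DR libraries, and 14 had a DR mean under 1 CPM. In pooled tissue, fewer cells that express a transcript and less RNA per cell cannot be told apart.

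**Figure D1:**
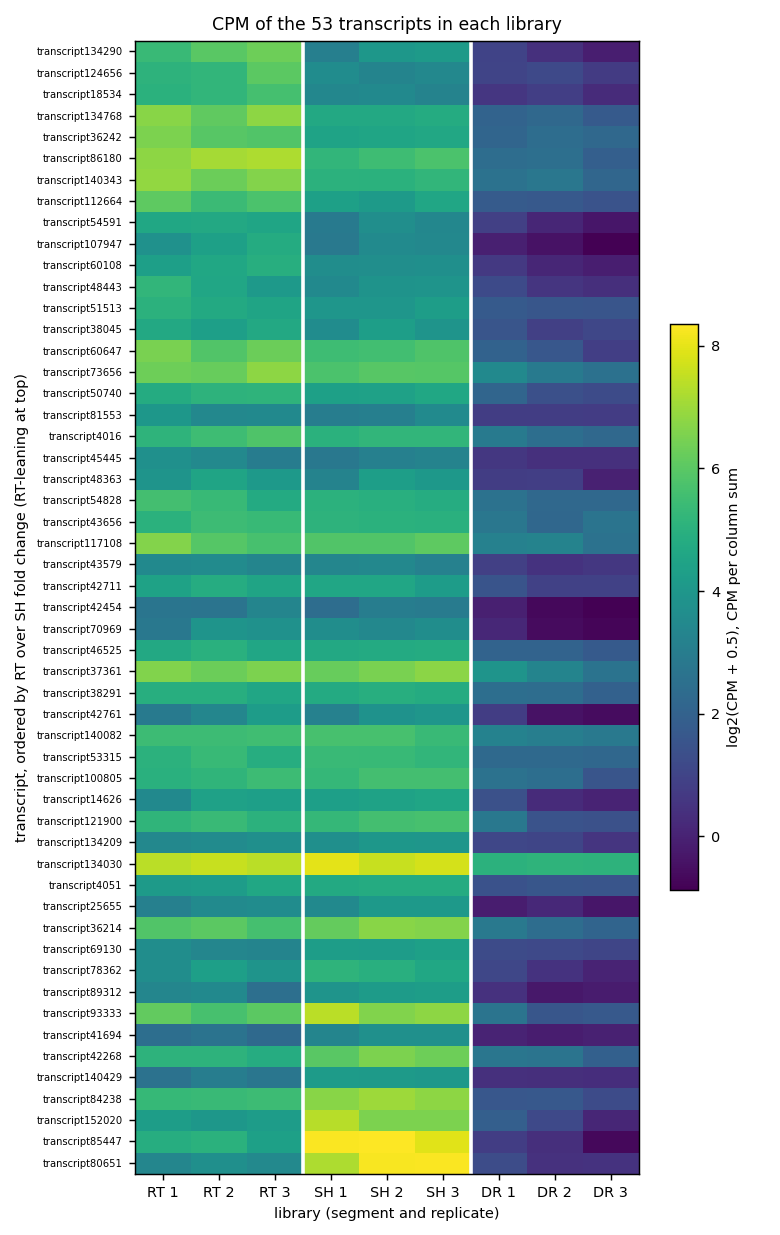
Heat map of log2(CPM + 0.5) for the 53 transcripts (rows) in the 3 RT, 3 SH and 3 DR libraries (columns), with rows ordered by the fold change of RT over SH. The DR columns are the lowest in every row, while transcript85447 and transcript80651, in the bottom rows, reach 327 and 314 CPM in their highest SH library.

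The members of largest score were transcript84238 (12.5), transcript85447 (11.9), transcript60647 (11.1), transcript93333 (7.80), transcript60108 (7.79) and transcript107947 (7.68). transcript84238 had 39.3, 41.2 and 42.9 CPM in RT replicates 1 to 3, 104, 128 and 110.1 CPM in the SH replicates, and 2.63, 2.69 and 1.84 CPM in the DR replicates. Its libraries lay close together within each segment, and the 3 segments did not overlap. Its mean was 17.2 times the DR mean in RT and 47.7 times in SH.

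transcript60647 had 89.5, 57.5 and 77.6 CPM in RT, 44.5, 46.1 and 55.5 CPM in SH, and 3.56, 2.57 and 1.27 CPM in DR. The root tip and the shoot were here close to each other, and the lowest RT library lay just above the highest SH library. transcript60108 had 19.4, 23.8 and 29.5 CPM in RT, 11.9, 12.5 and 12.6 CPM in SH, and 1.09, 0.570 and 0.439 CPM in DR.

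transcript107947 showed the largest ratio of RT to DR among the members, 83.1. It had 13.4, 20.04 and 27.5 CPM in RT, 6.76, 11.2 and 10.3 CPM in SH, and 0.445, 0.244 and 0.0439 CPM in DR. The DR values correspond to 11, 6 and 1 counts, so this ratio carries a wide counting error. transcript93333 had 70.4, 49.8 and 64.4 CPM in RT, 167, 97.5 and 109.7 CPM in SH, and 5.94, 2.48 and 2.77 CPM in DR. Its SH replicate 1 and DR replicate 1 stood above the other libraries of their segment.

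Some members remained well measured in DR. transcript134030 had the highest DR level of the set, 32.8, 34.1 and 33.9 CPM, against 169.8, 192 and 169.5 CPM in RT and 254, 189.9 and 215 CPM in SH. The 3 DR libraries were nearly equal, and this was the only member with a DR mean of at least 10 CPM (1 of 53). transcript37361 had 96.2, 78.2 and 92.3 CPM in RT, 73.2, 89.7 and 106 CPM in SH, and 14.6, 9.33 and 5.75 CPM in DR. RT and SH overlapped for it, and its DR libraries were spread over a wider relative range.

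**Figure D2:**
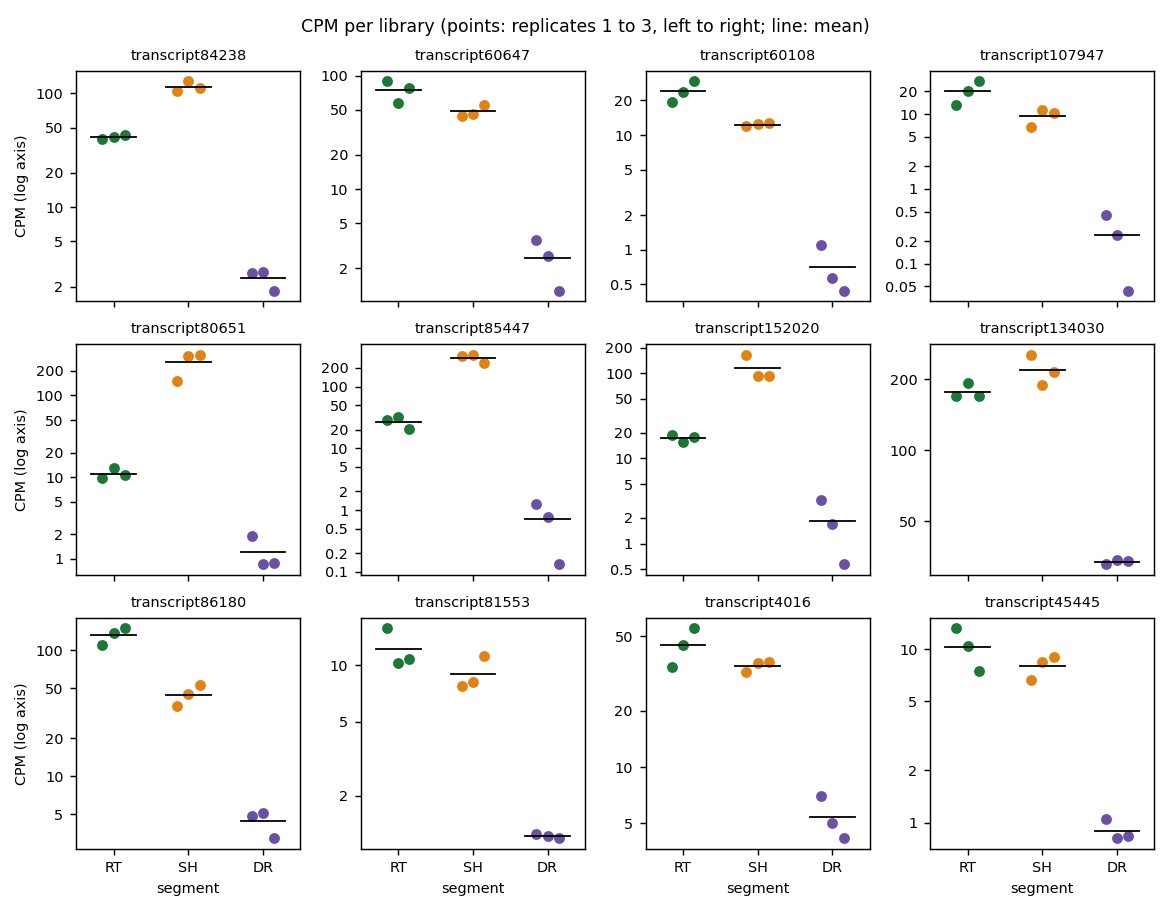
CPM (log axis) of 12 members in each RT, SH and DR library, with points for replicates 1 to 3 and a line at the segment mean. DR lies below RT and SH in each panel, and transcript134030 is the only panel whose DR libraries exceed 30 CPM.

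Most members lay close to the limit, with 30 of 53 below a score of 5 and 11 at 6 or above. The 4 just inside were transcript69130 (4.17), transcript89312 (4.13), transcript54591 (4.11) and transcript38045 (4.10). The 4 just outside were transcript94203 (3.98), transcript100255 (3.95), transcript48127 (3.94) and transcript57695 (3.91). transcript38045, the last one inside, had 25.4, 19.9 and 25.5 CPM in RT, 11.7, 19.4 and 14.4 CPM in SH, and 2.47, 1.34 and 1.63 CPM in DR. transcript94203, the first one outside, had 48.7, 49.3 and 52.5 CPM in RT, 16.8, 24.7 and 22.6 CPM in SH, and 3.84, 2.48 and 2.11 CPM in DR. In both, all RT and SH libraries lay above all DR libraries. RT also lay above SH without overlap in both, but only just in transcript38045 (19.9 against 19.4 CPM). The RT over SH difference passed in transcript94203 (log2 difference 0.83, SE 0.22, edgeR adjusted p = 0.0082). It did not pass in transcript38045 (0.23, SE 0.24, adjusted p = 0.441). Lowering the limit to 3 would admit 131 transcripts and lowering it to 2 would admit 409.

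The limiting libraries were not spread evenly. The lowest of the 6 RT and SH libraries was an RT library for 26 members and an SH library for 27, and SH replicate 1 was the lowest for 19. The highest DR library was replicate 1 for 41 members, replicate 2 for 12 and replicate 3 for 0, or 77.4%, 22.6% and 0%. Over the 14217 transcripts at 5 CPM in both segments, DR replicate 1 was the highest for 47.2%, replicate 2 for 25.6% and replicate 3 for 27.2%. The median member stood at 2.47 CPM in DR replicate 1, 1.75 in replicate 2 and 1.58 in replicate 3. DR replicate 1 was also raised for transcripts chosen without any DR library. The 1106 transcripts whose RT libraries were at least 4 times their SH libraries had a median of 14.5 CPM in DR replicate 1, 11.8 in replicate 2 and 9.86 in replicate 3. The 1003 transcripts with the reverse pattern had medians of 7.56, 8.51 and 7.69 CPM. RT-rich transcripts were thus higher in DR replicate 1 than in the other DR libraries, and the part of this in the choice of members was not tested.

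Each library was then left out of the choice and read afterwards. Without DR replicate 1, 151 transcripts were chosen, and in 147 of them (97.4%) the unused DR replicate 1 lay below all 6 RT and SH libraries. This held for 19.6% of all transcripts at 5 CPM or more in both segments. The 4-fold margin was met in the unused library by 53 of the 151, or 35.1%. Without DR replicate 2 the rule chose 62 transcripts and without DR replicate 3 it chose 57, and the unused library lay below the 6 others in 62 of 62 and 57 of 57, against backgrounds of 21.6% and 23.9%. For the unused RT and SH libraries, every chosen transcript lay above all DR libraries (from 53 to 80 transcripts per library left out), against 51.3%, 48.7% and 43.9% of the background for RT replicates 1 to 3 and 31.7%, 35.1% and 34.8% for the SH replicates. Over the 9 choices, 624 of 628 readings were on the same side. Each unused library had no part in its own choice, but the background was not selected for this order in the other libraries. A transcript that meets the 4-fold margin in the unused library is also on the same side. These readings are a description with no test. The 4-fold margin is no separate reading. Asked of the unused library after the choice, it completes the full rule, apart from the limit on mean CPM. It was met by 53 transcripts in every choice, all of them among those on the same side. Its shares were 35.1% in DR replicate 1, 66.3% (53 of 80) in SH replicate 1 and 85.5% to 100% in the others. They only restate how many transcripts were chosen. Many transcripts recur among these choices, and of the 53 members, 52 were chosen again in every one. This follows from the rule, since leaving a library out cannot lower a score. A member can be lost only through the limit on mean CPM.

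**Figure D3:**
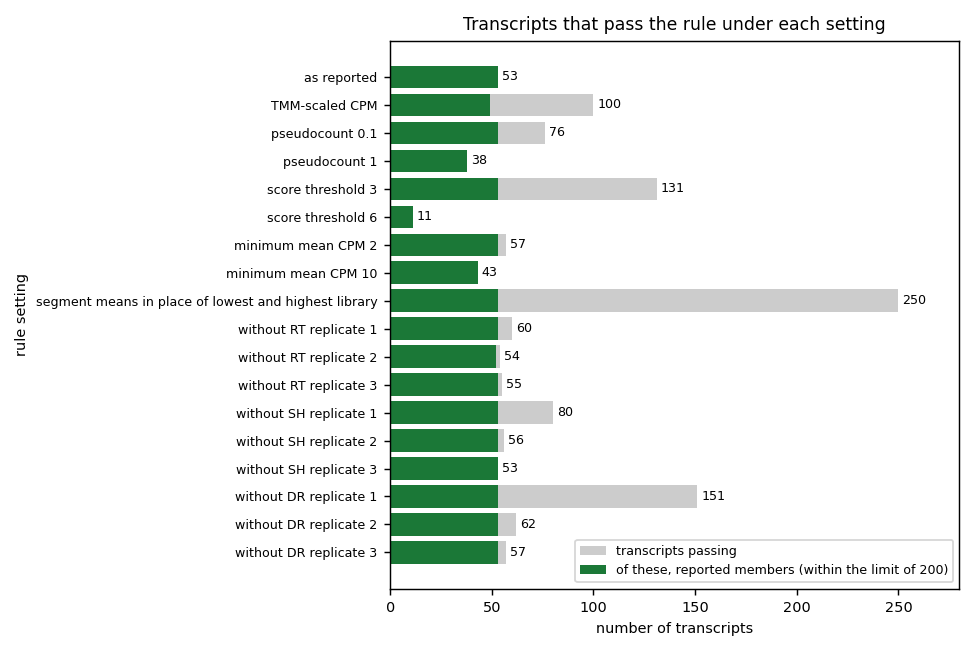
Number of transcripts that pass the rule (grey bars) and how many of them are among the 53 members (green bars) under each setting of the rule. The number is 53 as reported, 151 without DR replicate 1, 100 with TMM-scaled CPM and 11 at a score of 6.

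Scaling by TMM factors also mattered. TMM rescales each library so that most transcripts do not change, and its factors were from 0.773 to 0.853 in SH, from 1.09 to 1.10 in DR and from 1.01 to 1.25 in RT, so SH levels rise relative to the roots. With CPM scaled in this way 100 transcripts passed the rule, among them 49 of the 53. The 4 that did not pass were transcript41694, transcript42761, transcript80651 and transcript14626.

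The rule did not compare the root tip with the shoot, so this difference was tested, with edgeR's quasi-likelihood test on TMM-scaled counts over all 28952 transcripts and Benjamini-Hochberg adjustment. The rule does require both segments to clear a floor set by DR, which limits how far either can fall. At an adjusted p of at most 0.05, 19 members (35.8%) were higher in SH and 8 (15.1%) were higher in RT, while 26 did not pass. Over all transcripts 28.2% were higher in SH and 29.9% in RT, and over those at 5 CPM or more in both segments 32.6% and 31.4%. The share of members higher in SH was near this background, and the share higher in RT was below it. The members were chosen on CPM without TMM factors, while the test used these factors, which raise SH relative to RT. The part of this in the shares was not tested. The median log2 fold change of RT over SH was -0.30 in the members, against 0.00 over the transcripts at 5 CPM in both segments and 0.11 over all transcripts. The median size of the difference was 0.72 in the members and 0.71 over the transcripts at 5 CPM in both. The members thus differed between RT and SH by about as much as other transcripts at such levels.

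The balance between the directions depended on scaling. With library size alone, without TMM, 13 members were higher in RT and 13 in SH, or 24.5% each, against 42.0% and 20.0% of all transcripts under the same scaling. With either scaling, the RT share was below that of all transcripts and the SH share was above it. The shares at 5 CPM in both segments were not counted for library size alone. The median over all transcripts moved by 0.42 to 0.54 with it. Without scaling factors, 17 members (32.1%) had all RT libraries above all SH libraries and 14 (26.4%) had the reverse. The shares were 44.9% and 22.3% over all transcripts, and 50.3% and 23.5% over those at 5 CPM in both segments. Of the 27 members called with TMM, 23 had the same call with every single library left out, and 21 had it under all 19 other settings.

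**Figure D4:**
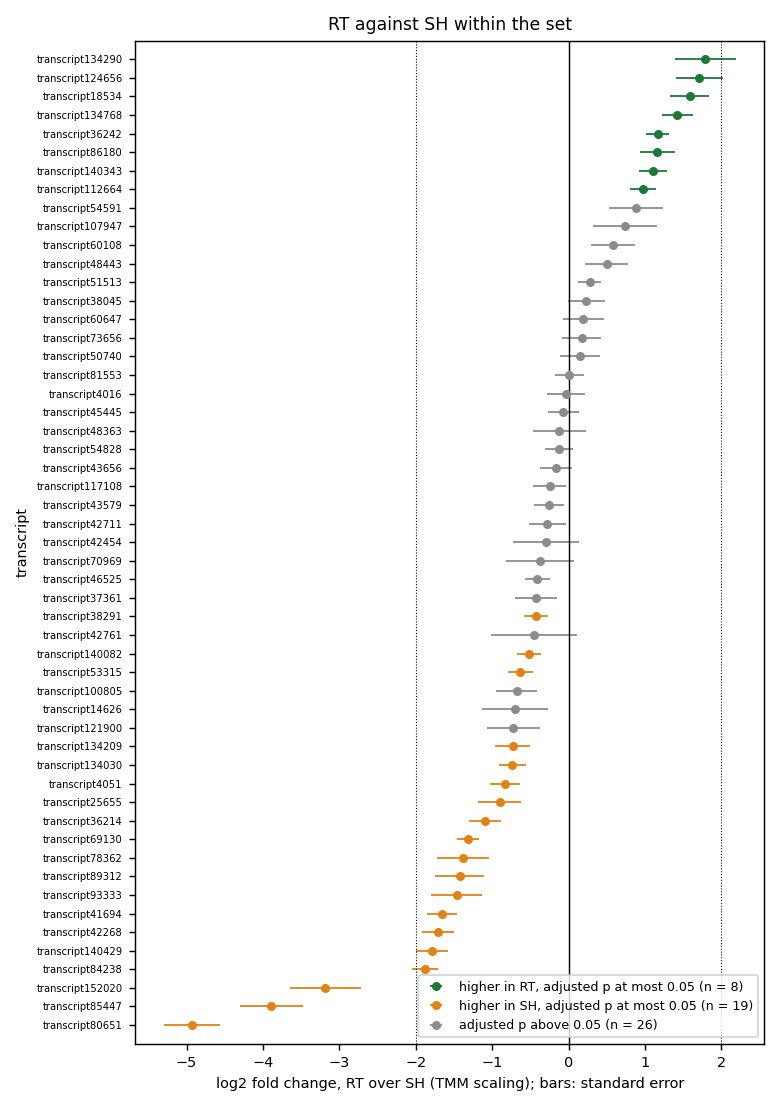
Log2 fold change of RT over SH for each of the 53 transcripts (points) with its standard error (bars), from edgeR with TMM scaling. The values run from -4.93 to 1.79, with 19 transcripts higher in SH in orange, 8 higher in RT in green and 26 with an adjusted p above 0.05 in grey.

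When the difference also had to reach a log2 fold change of 2 or more, 3 members (5.66%) were higher in SH. This was so for 11.9% of all transcripts and 7.85% of those at 5 CPM in both segments. The 3 members were transcript80651, transcript85447 and transcript152020, and all 3 kept this call in every setting of the test. transcript80651 had 150, 306 and 314 CPM in the SH replicates, 9.72, 12.8 and 10.6 CPM in RT, and 1.89, 0.855 and 0.878 CPM in DR. SH replicate 1 was the lowest SH library and DR replicate 1 the highest DR library, and the segments did not overlap. The RT over SH log2 difference was -4.93 (SE 0.37, edgeR adjusted p = 5.33e-06), and it ranged from -5.17 to -4.54 over the settings.

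transcript85447 had 316, 327 and 243 CPM in SH, 28.5, 31.7 and 20.4 CPM in RT, and 1.25, 0.774 and 0.132 CPM in DR. Replicate 3 was the lowest library in each of the 3 segments. The log2 fold change was -3.89 (SE 0.41, edgeR adjusted p = 3.75e-05), and the SH mean was 410.2 times the DR mean, which rests on 31, 19 and 3 counts in DR. transcript152020 had 164, 91.9 and 92.9 CPM in SH, 18.7, 15.5 and 18.0 CPM in RT, and 3.28, 1.71 and 0.571 CPM in DR. Its log2 fold change was -3.18 (SE 0.46, edgeR adjusted p = 0.000247). These 3 transcripts were mainly SH transcripts with a lower level in RT that still exceeded DR.

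The other 16 members higher in SH had smaller differences. They included transcript84238 at -1.88 (SE 0.17, edgeR adjusted p = 1.43e-05) and transcript93333 at -1.46 (SE 0.33, adjusted p = 0.0039). transcript134030, described above, was higher in SH by TMM (-0.73, adjusted p = 0.00457), although its RT and SH libraries overlapped in CPM, and with library size alone it did not pass (-0.31, adjusted p = 0.0683). For 14 of the 19, all SH libraries lay above all RT libraries also in CPM, and for 5 the libraries overlapped.

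Toward RT, 0 members reached a log2 fold change of 2 by edgeR, by DESeq2 (0) or by limma voom (0), while 9.32% of all transcripts and 2.50% of those at 5 CPM in both segments did by edgeR. Of the 100 transcripts chosen on TMM-scaled CPM, an alternative tried after seeing the data, 2 did toward RT and 2 toward SH. Without the fold threshold, 9 members were higher in RT at an unadjusted p under 0.05 by edgeR, and 9 at an adjusted p of 0.05 by each of the other tools. The shares over all transcripts were not counted for these. By edgeR at an adjusted p of 0.05, 15.1% of members and 29.9% of all transcripts were higher in RT. The 8 members called by edgeR had log2 fold changes from 0.98 to 1.79, and in each of them the 3 RT libraries lay above the 3 SH libraries. transcript86180 had 109, 136 and 149 CPM in RT, 36.1, 44.8 and 52.7 CPM in SH, and 4.89, 5.13 and 3.25 CPM in DR. Its log2 fold change was 1.16 (SE 0.22, edgeR adjusted p = 0.00145).

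The largest difference toward RT, picked out after the values were seen, was that of transcript134290, with 40.7, 62.5 and 79.0 CPM in RT, 8.14, 15.4 and 17.2 CPM in SH, and 1.46, 0.817 and 0.439 CPM in DR. Its log2 fold change was 1.79 (SE 0.40, edgeR adjusted p = 0.00327). It was 2.07 without RT replicate 1. With library size alone it was among 2 members past a log2 fold change of 2 toward RT, the other being transcript124656, also singled out afterwards, with 33.9, 36.2 and 64.5 CPM in RT and 11.8, 9.31 and 10.2 CPM in SH.

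The 26 members not called had log2 fold changes from -0.72 to 0.89, and 17 of them had overlapping RT and SH libraries. Those closest to 0, with an adjusted p above 0.5, were transcript81553 (0.01, SE 0.19), transcript4016 (-0.03, SE 0.25), transcript45445 (-0.07, SE 0.21) and transcript48363 (-0.12, SE 0.34). transcript81553 had 15.8, 10.3 and 10.8 CPM in RT, 7.75, 8.11 and 11.2 CPM in SH, and 1.25, 1.22 and 1.19 CPM in DR. transcript4016 had 34.4, 44.8 and 55.1 CPM in RT, 32.3, 35.9 and 36.7 CPM in SH, and 7.00, 5.05 and 4.17 CPM in DR. RT and SH overlapped in both, and the standard errors leave room for moderate differences. All 4 changed sign under some scaling or with single libraries left out.

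The members not called included 3 of the 6 of largest score. The RT over SH log2 difference was 0.19 for transcript60647 (SE 0.27, edgeR adjusted p = 0.567), 0.58 for transcript60108 (SE 0.29, adjusted p = 0.11) and 0.74 for transcript107947 (SE 0.42, adjusted p = 0.154). For transcript54591, near the limit with a score of 4.11, it was 0.89 (adjusted p = 0.0555), and 0.87 with DESeq2 (adjusted p = 0.0252). With library size alone transcript60108, transcript107947 and transcript54591 were higher in RT (adjusted p = 0.00992, 0.0383 and 0.0132).

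The transcripts that a source ties to a gene were 3 of the WOX family, homeobox factors that include regulators of stem cell maintenance in flowering plants. None reached 5 CPM in both RT and SH, so 0 could be members. CriWOXA (transcript45206) had 1.84, 4.38 and 7.05 CPM in RT, 1.23, 2.31 and 1.73 CPM in SH, and 0.162, 0.611 and 0.573 CPM in DR. All 6 of its RT and SH libraries lay above all DR libraries, as in the members, at a score of 1.55. RT and SH overlapped, and their difference did not pass (log2 difference 0.99, SE 0.55, edgeR adjusted p = 0.153).

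CriWUL (transcript86941), of the WUSCHEL clade, had 4.68, 2.71 and 2.97 CPM in RT, 0.0395, 0.183 and 0.11 CPM in SH, and 0.202, 0.448 and 0.220 CPM in DR. It was high in RT alone. CriWOXB (transcript86378) had 6.98, 2.50 and 5.98 CPM in RT, 0.711, 1.02 and 0.953 CPM in SH, and 50.5, 26.8 and 25.7 CPM in DR, where it was highest.

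Members were also checked for shared reads. kallisto divides reads among similar transcripts, which leaves estimated counts that are not whole. Of the 53, 14 (26.4%) had a count more than 0.01 from a whole number in at least 1 library, against 33.3% of all transcripts. Such values held 22.8% of the members' counts and 29.3% of all counts. transcript73656 had them in 8 libraries, transcript93333 in 5, transcript134768 and transcript134290 in 4, and transcript85447 in 3, so their levels may include or lack reads of a close copy. No 2 members had consecutive transcript numbers (0 pairs). The next number was in the table for 39.6% of members and 43.6% of all transcripts. Of 46 other transcripts numbered next to a member, 3 had the members' order of segments at 5 CPM in both, below the score limit. They were transcript43655 (score 3.74), transcript36241 (3.24) and transcript134291 (2.71). Whether such neighbours are fragments or copies of a member was not tested.

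Within a segment the members varied more between replicates than other transcripts at 5 CPM or more in both RT and SH. The median coefficient of variation was 19.2% in RT, 12.8% in SH and 29.8% in DR, against 15.5%, 10.1% and 11.7%. The counts of members in DR are small, and their part in this was not tested. The widest spread in RT was that of transcript42761 (50.3%), with 7.08, 9.77 and 18.4 CPM.

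The same rule with the segments exchanged found more transcripts. High in RT and DR and low in SH were 384, with scores up to 37.6, and high in DR and SH and low in RT were 153, with scores up to 69.3. The 53 transcripts low in DR were the smallest of the 3 sets, and their largest score was 12.5. This ranking holds for CPM without TMM factors and with all libraries. The exchanged rules were not repeated under other settings, while the 53 became 100 with TMM-scaled CPM and 151 without DR replicate 1.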

How the data were processed

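Libraries of the RT, SH and DR (3 biological replicates each, TruSeq, paired-end) were analysed. The authors checked reads with FastQC 0.11.2, trimmed them with Trimmomatic 0.32, assembled all libraries with Trinity, clustered the assembly, quantified each library with kallisto 0.44.0 and removed low transcripts with edgeR. The deposited table holds estimated counts per transcript, not divided by library size or length, although it is named for TPM.

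Here CPM were computed per column sum for the rule. For RT against SH, counts were rounded and fitted with edgeR 4.0.16 (R 4.3.3; TMM factors, 1 coefficient per segment over all 9 libraries, prior count 0.125, glmQLFTest), with adjustment over all 28952 transcripts and thresholds of 0.05 and a log2 fold change of 2. Standard errors are the fold change over the square root of F. limma 3.58.1 (voom) and DESeq2 1.42.0 were alternatives. Every replicate pair differed by more than sampling noise (lowest mean chi-square 19.1 per transcript).

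The members, the lists and the rule for naming were chosen with earlier results of these data known. The rule named the members of largest and smallest score, of highest mean, and of largest and smallest RT to SH difference, the 4 transcripts next below the limit, and the 3 transcripts that the study's text ties to a gene. Other settings of the rule, scaling, tool, prior count, filter and samples, the replicate number as a block, and each library left out were tried. GO terms, sequences and coordinates are not analysed here.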

Additional observations from a re-analysis of the deposited data

How the results depend on the processing

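The 53 transcripts became 100 with TMM-scaled CPM, 131 at a score of 3, 11 at a score of 6 and 250 with segment means in place of the lowest and highest library, and 53 to 151 when a library was left out (80 without SH replicate 1, 151 without DR replicate 1). Pseudocounts of 0.1 and 1 gave 76 and 38, and mean limits of 2 and 10 CPM gave 57 and 43. At a log2 fold change of 2, the count of 0 members higher in RT became 2 with library size alone and 0 to 1 with single libraries left out (1 without RT replicate 1). At a log2 fold change of 1 it was 7, with 12 higher in SH, and with the adjusted p alone 8 and 19, with 26 not past. Over all transcripts, 2698 were higher in RT and 3438 in SH, which became 5953 and 6173 at a log2 fold change of 1 and 8649 and 8172 with the adjusted p alone. With library size alone they were 3933 and 2593. As alternatives chosen after seeing the data, the 100 transcripts under TMM-scaled CPM gave 2 higher in RT, 2 in SH and 96 not past, and the 151 chosen with DR replicate 1 ignored gave 1, 7 and 143.

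Transcripts near 0 changed sign. With library size alone the RT over SH log2 fold change was 0.36 for transcript4016, 0.37 for transcript45445 and 0.27 for transcript48363. Upper quartile scaling gave 0.051 for transcript4016 and 0.038 for transcript45445, and RLE scaling gave -0.0179 and DESeq2 -0.0182 for transcript81553. With single libraries left out, the range was -0.26 to 0.19 for transcript4016, -0.17 to 0.10 for transcript45445, -0.35 to 0.093 for transcript48363 and -0.10 to 0.17 for transcript81553. The cause of these changes was not tested. With the replicate number as a block, 2569 transcripts were higher in RT and 3423 in SH, and the members' counts stayed at 0, 3 and 50. Deviations of same-numbered libraries correlated from -0.41 to 0.22. Differently numbered libraries were not compared, so this cannot decide whether the numbers pair the samples. The filter on low counts removed few transcripts and moved none of the members' counts.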
